A study of Mus musculus with 2 samples.

Results

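The nuclear factor I (NFI) family of the mouse consists of 4 genes, Nfia, Nfib, Nfic and Nfix, and all 4 were found by symbol among the 21938 protein-coding genes of GENCODE M21 on the mm10 genome. They were examined in a map of H3K4me3, trimethylation of histone H3 at lysine 4, made by ChIP-seq in MEL cells, an immortalized mouse erythroleukaemia line. The data were peak lists of 2 replicate libraries of these cells, 1 group with no second condition. The family was chosen because the H3K4me3 domain at Nfia is among the widest in these lists, so the width of that domain is a description here and no finding. A gene counted as marked if any annotated transcription start site (TSS) of it had a peak no more than 1000 bp away. Peaks parted by no more than 1000 bp were joined into domains, and a TSS domain is 1 that holds such a peak.

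NFI proteins bind DNA as dimers, through a well conserved amino-terminal domain, at the palindrome TTGGC, 5 bases of any kind, GCCAA. They activate or repress transcription and regulate the development of brain, lung, tooth and muscle. In blood progenitors NFIA is known to favour the red cell over the granulocyte lineage, and the microRNA miR-223 represses it. H3K4me3 marks the promoters of active and poised genes and is most common where CpG is dense.

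The lists held 51790 peaks in replicate 1, 41508 in replicate 2 and 37387 in the replicated list, which the authors derived from both replicate lists and a pooled list. Read counts are not in these lists, so depth is unknown and low coverage at a site without a peak was not tested. Per the labels the replicates are biological ones, numbered 1 and 2, but of the same cell sample, so the spread between them may be technical. With 1 group and members chosen with results known, no test was made, and differences are given beside the values of both replicates. The cells carried the marks of the labelled type: 8 of 8 erythroid markers (Gata1, Tal1, Klf1, Nfe2, Gfi1b, Lmo2, Zfpm1, Epor) had a TSS peak in every list. Of 14 markers of lymphoid, myeloid, liver, astrocyte, muscle, fibroblast and pluripotent cells, 0 had 1 in the replicated list. Of all protein-coding genes, 50.3% had 1 there. The myeloid markers were Mpo and Elane, while other myeloid genes described below, Spi1, Cebpa and Csf3r, did have a replicated TSS peak. A single astrocyte gene, Gfap, had a 193 bp TSS domain in replicate 2. Peaks in a culture cannot tell fewer marked cells from less mark in each cell.

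Nfia, Nfic and Nfix were marked and Nfib was not. The count was 3 of 4 in the replicated list, against 50.3% of all protein-coding genes. It was 3 of 4, and of the same genes, in the replicate 1 list (50.4% of all genes), the replicate 2 list (50.9%) and the pooled list (50.6%). The marked members differed in how far the mark extended, from a domain of over 11 kb at Nfia to a domain near the middle of all marked genes at Nfix.

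The promoters of Nfia and Nfic are shown because these members had the widest domains: each line is the 250 bases upstream of a start, 5′ to 3′ on the strand of the gene, from the GRCm38 RefSeq assembly, the same build as mm10. Capitals mark CpG dinucleotides. The windows are Nfia at chr4:97777358-97777607 (plus strand) and Nfic at chr10:81431006-81431255 and chr10:81427188-81427437 (minus strand). The starts of all 3 were marked.
Nfia, main start: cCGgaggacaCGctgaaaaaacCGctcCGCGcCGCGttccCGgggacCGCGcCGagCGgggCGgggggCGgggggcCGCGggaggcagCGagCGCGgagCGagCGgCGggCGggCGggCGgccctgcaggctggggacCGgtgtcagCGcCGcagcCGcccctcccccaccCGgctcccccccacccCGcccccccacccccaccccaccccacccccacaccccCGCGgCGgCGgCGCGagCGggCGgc
Nfic, outer start: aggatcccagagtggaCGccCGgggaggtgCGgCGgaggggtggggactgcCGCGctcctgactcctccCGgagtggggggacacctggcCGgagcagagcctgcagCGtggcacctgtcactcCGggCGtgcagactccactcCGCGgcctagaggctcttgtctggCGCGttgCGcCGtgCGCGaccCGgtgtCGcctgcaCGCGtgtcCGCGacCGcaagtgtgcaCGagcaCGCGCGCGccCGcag
Nfic, inner starts: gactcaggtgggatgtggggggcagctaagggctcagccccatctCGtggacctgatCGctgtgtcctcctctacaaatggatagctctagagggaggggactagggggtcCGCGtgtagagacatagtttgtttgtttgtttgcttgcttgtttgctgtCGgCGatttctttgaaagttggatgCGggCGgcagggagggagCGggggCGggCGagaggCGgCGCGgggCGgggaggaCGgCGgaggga

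CpG was dense in the Nfia and outer Nfic windows. They hold 39 and 32 CpG, against a median of 8 and an upper quartile of 17 over the same window of all 21938 genes. That background takes the 5'-most start of each gene, while the printed windows are at inner starts. The 5'-most starts of Nfia and Nfic have 4 and 14 CpG upstream. The inner Nfic window holds 17. Over the window reaching 500 bases to each side of the start, the observed to expected CpG ratio was 1.12 at Nfix, 0.931 at Nfia, 0.832 at Nfib, 0.81 at the outer and 0.493 at the inner Nfic starts. By the usual limits, a ratio of at least 0.6 with a GC share of at least 0.5, all of these but the inner Nfic starts are high-CpG promoters. The TTGGC arm of the NFI palindrome was searched on both strands. None of the 3 printed windows holds it. Of all 9 windows before the groups of Nfia and Nfic starts, 4 do, among them that of the 5'-most Nfic start, against 43.4% of all promoter windows of this length. The full palindrome occurred in 5 of the 21938 windows.

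**Figure D1:**
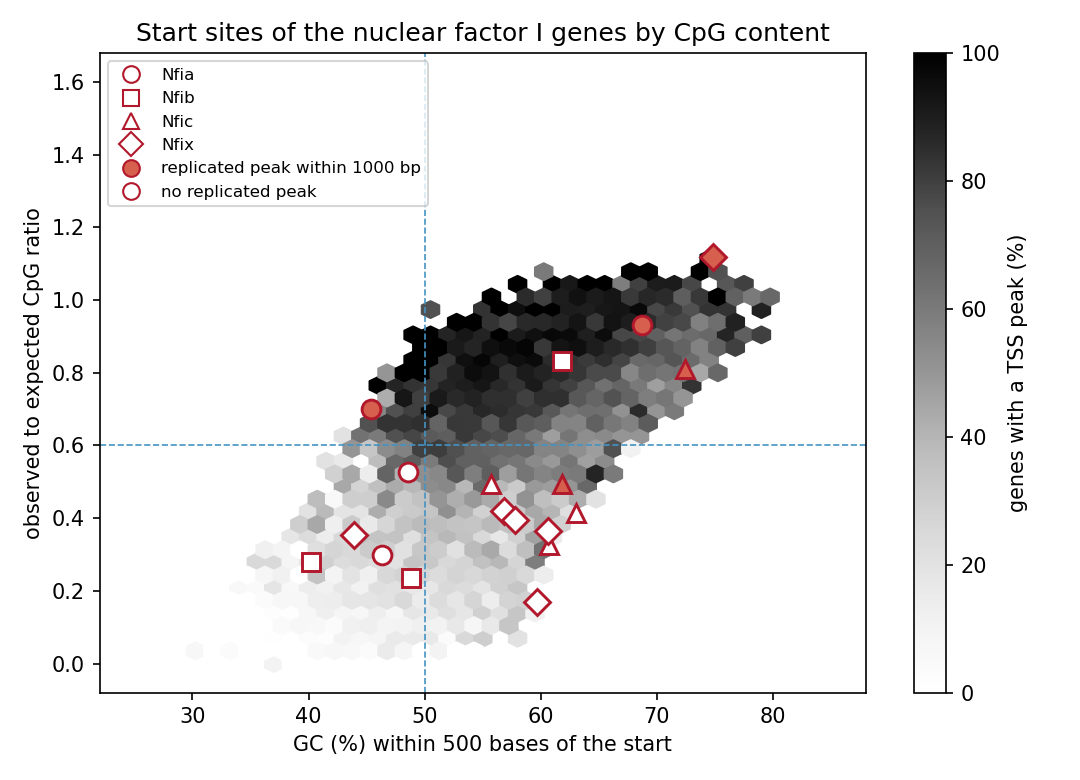
Each marker is a group of neighbouring starts of an NFI gene, placed by the GC percent (x axis) and the observed to expected CpG ratio (y axis) within 500 bases of it, filled where a replicated peak lay within 1000 bp. Grey cells give the percent of protein-coding genes with a peak at any start, by composition at the 5'-most start (cells of under 5 genes are blank). Markers show every group of starts, each with its own peaks, so the 2 measures differ. The dashed lines are the limits 0.6 and 50%. The main Nfib start, at 0.832, is an open marker within the dark cells, while the 5'-most Nfib start is at 0.236.

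Nfia encodes the member tied to red cell development. The gene lies on the plus strand of chromosome 4, from 97772734 to 98118874, and is 346141 bp long. Its TSS domain spanned 11346 bp in replicate 1 and 11122 bp in replicate 2, a mean of 11234 bp ± 158 (SD, n = 2). The median marked gene had 2409 bp in replicate 1 and 2228 bp in replicate 2, a distance that the choice of the family fixed. In the replicated list the domain was 11156 bp, from 97771394 to 97782549. It ranked 3rd of 11037 marked genes there, 13th of 11051 in replicate 1 and 4th of 11176 in replicate 2.

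The strongest TSS peak of Nfia had a signal value, the authors' score for a peak, of 17.7 in the replicated list, 13.5 in replicate 1 and 19.2 in replicate 2. These placed Nfia 2500th, 4076th and 2991st among the marked genes of each list, so many marked genes had a stronger TSS peak. Signal values were ranked within each list only.

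Within the domain the mark lay on both sides of the main group of Nfia starts. That group holds 5 of the 8 annotated starts, the first at 97777608, and the domain reached 6214 bp upstream and 4942 bp downstream of it (6343 and 5003 bp in replicate 1, 6180 and 4942 bp in replicate 2). The replicated list divides it into 6 peaks. The widest, 4587 bp from 97777655 to 97782241, was also the strongest and had its summit in an intron, 1387 bp downstream of the first start of the group. The start of the transcript Nfia-208, at 97772734, lies under the outermost upstream peak, which spans 1927 bp and had a signal value of 9.57. This start lies in sequence of lower GC, 45.4%, with 4 CpG in the 250 bases upstream.

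The replicates agreed on the extent of the Nfia domain and differed in where it was strongest. In replicate 2 the highest value, 19.2, belonged to the intronic peak that begins at the main starts, and the peak at the Nfia-208 start had 10.2. In replicate 1 the highest value, 13.5, belonged to a peak ending 440 bp upstream of Nfia-208, while the peak at that start had 8.79 and the widest intronic peak 9.94. Replicate 1 divided the domain into 9 peaks and replicate 2 into 6.

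**Figure D2:**
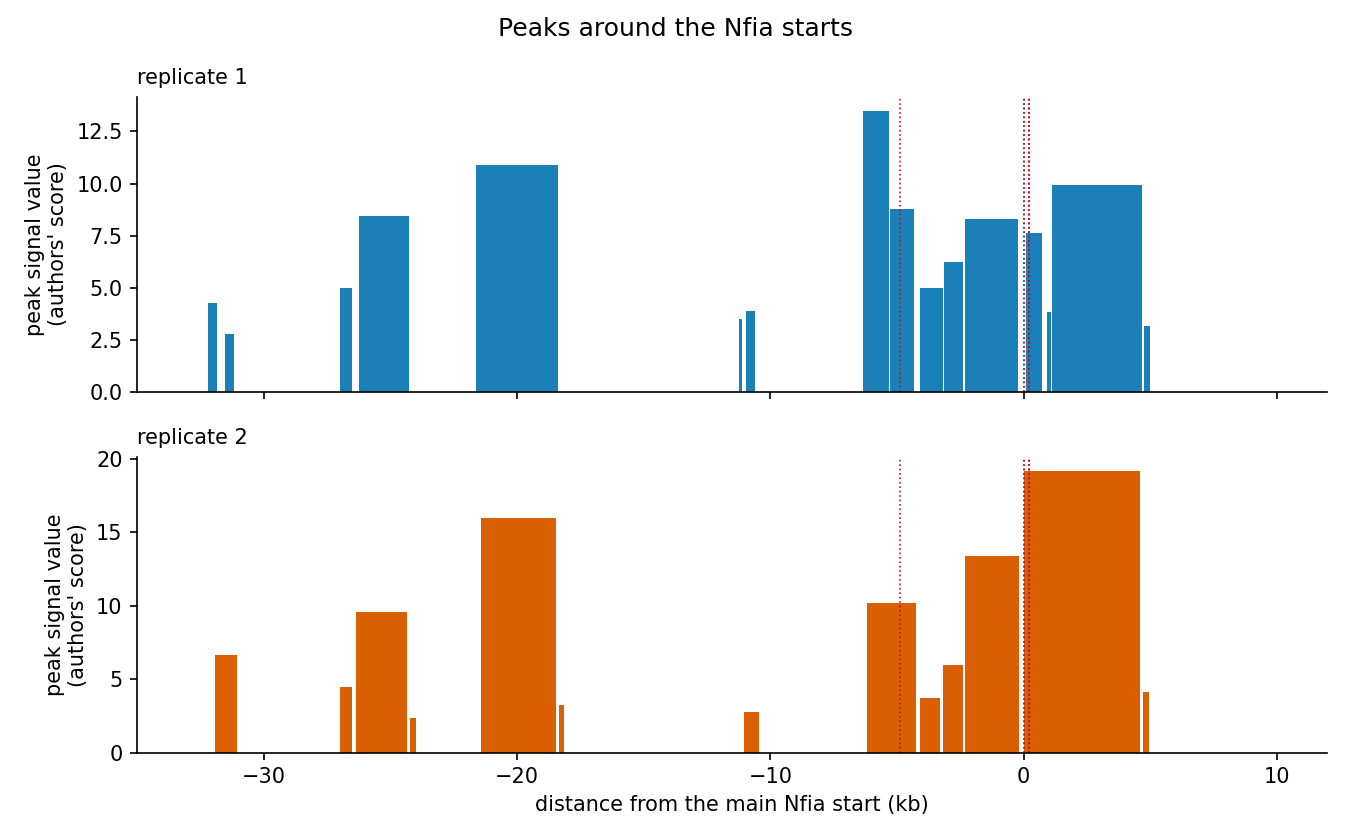
Peaks around the Nfia starts in each replicate: the x axis is the distance from the main start in kb, each bar covers 1 peak and its height is the authors' signal value (y axes differ between panels), and dotted lines are annotated starts. The domain runs from about 6 kb upstream to 5 kb downstream in both panels, with its tallest bar on the upstream side in replicate 1 (13.5) and on the downstream side in replicate 2 (19.2).

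The Nfia domain also holds the start of another gene. E130114P18Rik, a protein-coding gene of the opposite strand, has its outermost start at 97778078, inside the widest Nfia peak, and its TSS domain is the same 11156 bp. The genes overlap at their 5′ ends, and the marks of the pair cannot be told apart in this region. Apart from it, the genes closest to Nfia in domain width over the 2 replicates were Bcl11a, a repressor of embryonic globin, and its overlapping neighbour A830031A19Rik (11080 and 10203 bp), Gse1 (10544 and 10433 bp) and Irf2bp2 (12394 and 12090 bp).

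Further H3K4me3 lay upstream of Nfia, within E130114P18Rik, which spans 97568133 to 97778078. Which gene this mark belongs to was not tested. In the replicated list 4 separate domains lay between 32 and 10.4 kb before the main start. The largest spanned 3059 bp, from 97756148 to 97759206, with a signal value of 13.9, above 83.9% of the list. It measured 3238 and 3275 bp in replicates 1 and 2, and it covers the start of Gm12676, a noncoding transcript of the minus strand. A domain of 2636 bp lay between 27.0 and 24.4 kb before the start and held no start of another gene within 1000 bp. The domains farthest from and nearest to the start, of 804 and 541 bp, were weaker, with signal values of 5.37 and 3.08. All 5 upstream peaks were found in both replicate lists.

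Peaks continued far into the Nfia gene. Past the TSS domain, 10 replicated peaks formed 6 intronic domains, the last of them 144 to 146 kb from the main start, and none lay within 1000 bp of an Nfia start. Their best signal values ran from 2.82 to 6.42, well under the 17.7 at the starts, and the widest, between 53.0 and 55.2 kb, spanned 2235 bp. In replicate 1 the best values ran from 2.83 to 9.52, the highest above 78.0% of that list, against 13.5 at the starts. In replicate 2 they ran from 2.37 to 6.43, against 19.2. Replicate 1 listed 19 of these intronic peaks, with domains of up to 4143 bp, against 10 peaks and domains of up to 1768 bp in replicate 2. The whole list of replicate 1 was also longer, 51790 peaks against 41508, and its median peak narrower, 405 bp against 481 bp. In all, 16 replicated peaks lay in Nfia or the 1000 bp before it (29 in replicate 1, 16 in replicate 2), against a median of 2 over marked genes. Of the 16, 11 had a −log10 q of at least 5. All 16 together covered 4.83% of the gene, against a median of 8.44% over all marked genes, of which 30.4% had a smaller share. Over the 367 marked genes of 200 kb or longer the medians were 5.0 peaks and 1.08%. Among those 367 genes Nfia ranked 12th by number of peaks and 4th by share covered, both of which include the domain that chose the family.

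Not every Nfia start was marked. Of 8 starts, 6 lay within 1000 bp of a replicated peak. The internal starts of Nfia-207, at 97880119, and Nfia-206, at 97911033, lay 13673 and 8857 bp from the nearest one. Nfia-206 had a 182 bp peak of signal value 5.0 at 211 bp in replicate 1 alone.

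**Figure D3:**
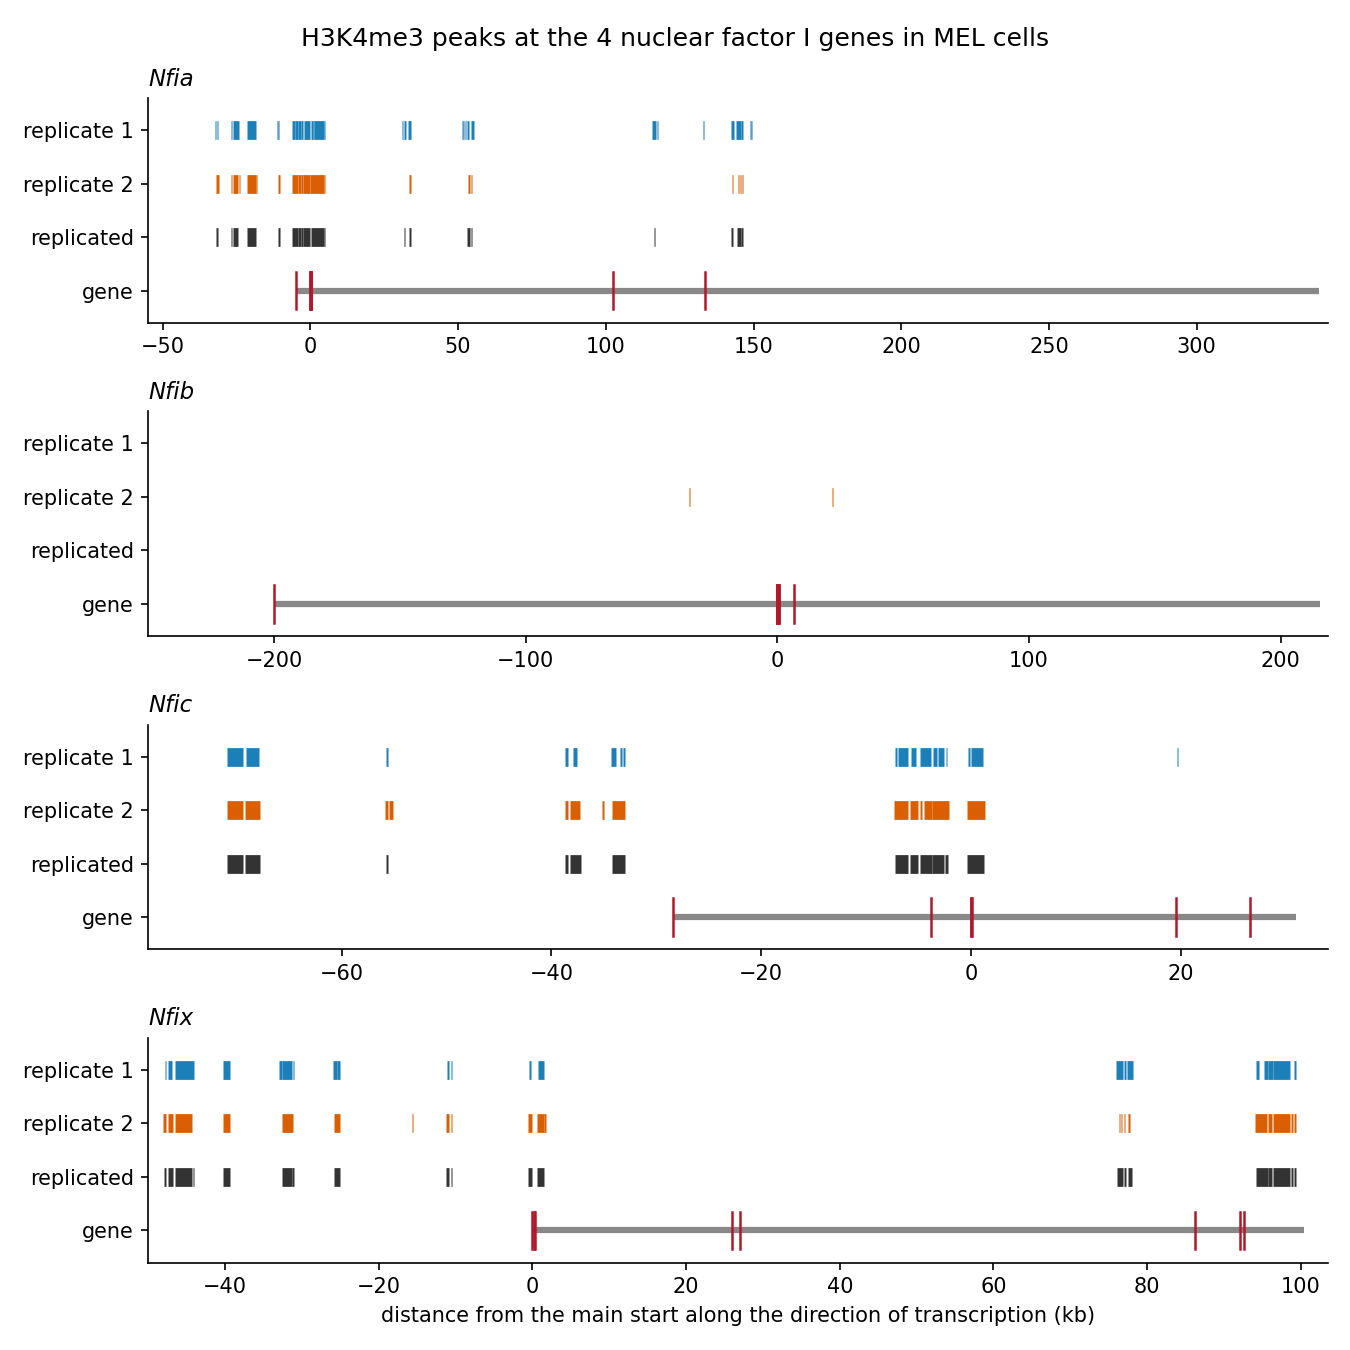
Peaks of each list (coloured bars) at the 4 NFI genes, with the gene (grey) and its annotated starts (red ticks), by distance in kb from the main start along the direction of transcription. Up to 50 kb upstream of each gene is shown, where peaks of other genes also lie, and the 2 bars at Nfib, both of replicate 2, are the only ones in that panel.

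Nfic, which in mice is needed for tooth root formation, carried H3K4me3 at a pair of separate promoter regions. The gene lies on the minus strand of chromosome 10, from 81396186 to 81455635, and is 59450 bp long. Its widest TSS domain spanned 4993 bp in replicate 1 and 5164 bp in replicate 2 (mean 5078 bp ± 121, SD, n = 2). In the replicated list it was 5132 bp, from 81429342 to 81434473, rank 419 of 11037, with 96.2% of marked genes narrower. This domain holds the start of the transcript Nfic-204, at 81431005, and consists of 5 peaks with signal values of up to 11.3 (9.3 in replicate 1, 14.1 in replicate 2).

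The inner Nfic region was narrower and stronger. It is a single replicated peak of 1614 bp, from 81425916 to 81427529, at the starts of Nfic-201, Nfic-202 and Nfic-203. Its signal value was 16.5 in the replicated list, 14 in replicate 1 and 19.9 in replicate 2, higher than any peak of the wider domain in each of these lists. It spanned 1432 bp in replicate 1 and 1681 bp in replicate 2. The wider domain thus sat at the CpG-dense start and the stronger peak at the start with 17 CpG upstream. The closest genes to Nfic in domain width were Haspin, Nr3c2, Xpot, Tbrg4 and Otud4, with summed differences of 28 to 160 bp over the replicates.

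The 5'-most start of Nfic was unmarked. The start of Nfic-207, at 81455635, is of low CpG ratio, 0.325, and lay 4566 bp from the nearest replicated peak. Of the 7 Nfic starts, 4 were marked, and each of those 4 lay under a replicated peak. Judged by its 5'-most start alone Nfic would count as unmarked. The count would then be 2 of 4 members, against 46.9% of all genes under the same rule. All 6 replicated peaks in Nfic, which cover 10.2% of it, were found in both replicate lists. A peak of signal value 2.45 lay 68 bp from the start of Nfic-205 in replicate 1 alone.

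Nfix, which drives the switch from embryonic to fetal muscle and acts in blood stem cells, had a TSS domain of ordinary width. The gene lies on the minus strand of chromosome 8, from 84699876 to 84800344, and is 100469 bp long. The domain spanned 1949 bp in replicate 1 and 2402 bp in replicate 2 (mean 2176 bp ± 320, SD, n = 2), and 2073 bp in the replicated list, from 84798866 to 84800938. In the replicated list 42.5% of marked genes were narrower, and in the replicates 33.0% and 56.4%. The replicates thus put Nfix on either side of the median. Genes of like width were Dusp2, Kif23, Phlda2, Slc44a1 and Apopt1.

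The Nfix starts lay between peaks and not under them. The replicated domain is a pair of peaks, 836 bp with a signal value of 14.1 on the gene side and 504 bp with 12.6 upstream, parted by 733 bp. All 3 marked starts, at 84800024, 84800140 and 84800344, fell in that gap, which was 821 bp in replicate 1 and 654 bp in replicate 2. At Nfia a 236 bp gap held the starts of Nfia-202 and Nfia-203 (312 bp in replicate 1, 204 bp in replicate 2). A start between peaks of its domain was thus seen at 2 of 3 marked members in the replicated list, against 37.4% of all marked genes. In replicate 1 a 56 bp gap also held 1 Nfic start. Of the 32-base words within 500 bases of these starts, 1.44% at Nfix and 0% at Nfia occur elsewhere in the genome.

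**Figure D4:**
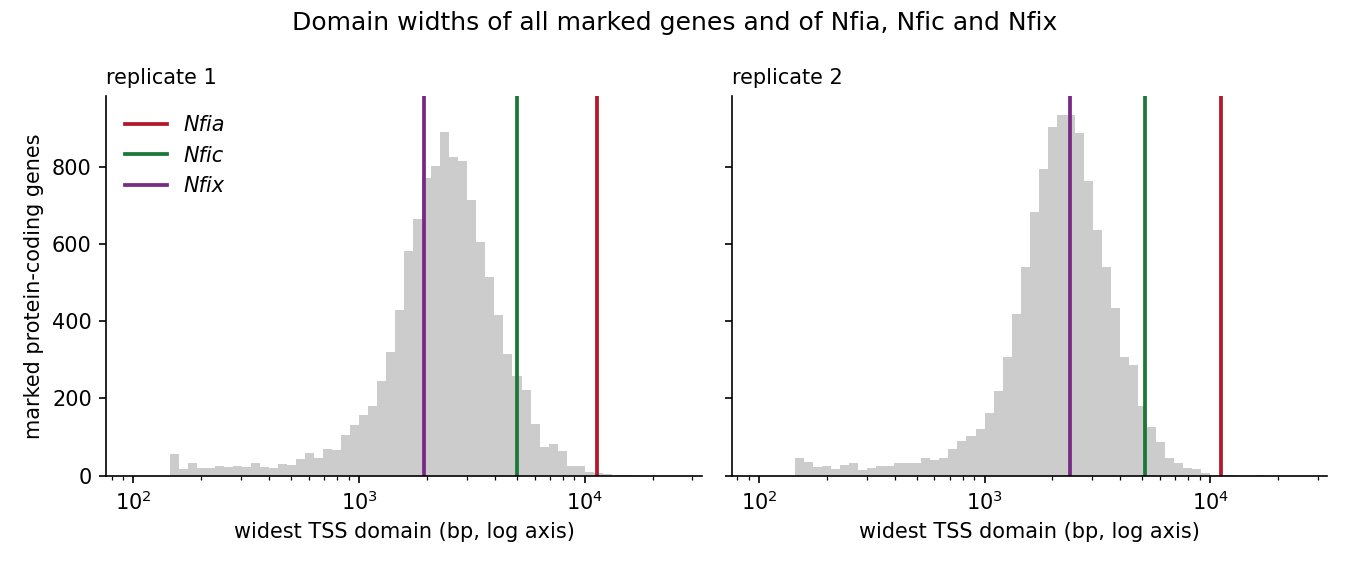
Number of marked protein-coding genes (y axis) by the width of the widest TSS domain (x axis, bp, log scale) in each replicate, with lines at Nfia, Nfic and Nfix. Nfia lies in the right tail of both panels, at 11346 and 11122 bp, Nfic on the right slope and Nfix, at 1949 and 2402 bp, near the peak.

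Most of the peaks inside Nfix lay in domains at the starts of other genes. Of its 10 replicated peaks, 2 lay at Nfix starts and 6 within 1000 bp of the start of another gene only. The other 2 were part of the same domain as the start of Lyl1. Lyl1 encodes a helix-loop-helix factor of blood cells related to Tal1, and it lies on the plus strand inside Nfix, in the opposite direction. The domain that holds its start, from 84701030 to 84706220, spanned 5191 bp (5210 bp in replicate 1, 5299 bp in replicate 2), wider than that of Nfix itself. The best signal values of this domain were 13.3, 13.8 and 14.8 in the replicated, replicate 1 and replicate 2 lists. It runs past the end of Lyl1, at 84704715. Its last peak, from 84704678, lies 1496 bp from the nearest Nfix start and 3221 bp from that of Lyl1. A weaker domain of 1903 bp lay at G430095P16Rik, with a signal value of 4.53. The internal Nfix starts at 84774369 and 84773396 lay 24497 and 25470 bp from the nearest replicated peak. The neighbour Trmt1, which ends 68 bp from Nfix, had a TSS domain of 4361 bp, and Dand5 on the other side had none.

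Nfib, which is needed for lung and forebrain development, had no TSS peak in any list. The gene lies on the minus strand of chromosome 4, from 82290173 to 82705750, and at 415578 bp is the longest of the family. Of genes of 200 kb or longer, which include Nfia and Nfib, 36.6% were marked. It has 8 distinct starts, and the nearest replicated peak to any of them was 142966 bp away. No peak lay anywhere in Nfib in the replicated, pooled or replicate 1 lists. Over all genes, 55.7% had a replicated peak in the gene or the 1000 bp before it, and 60.6% of genes of 200 kb or longer did. Replicate 2 listed 2 weak intronic peaks, of 150 and 289 bp, with signal values of 3.63 and 2.93 and −log10 q of 2.37 and 0.981. They lay 21.8 kb into the gene from the main start and 34.9 kb before it, towards the 5'-most start.

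The main Nfib promoter was not poor in CpG. Of 12 Nfib transcripts, 10 start in a group at and just below 82505779, whose surroundings, 500 bases to each side, hold 79 CpG and have a GC content of 61.8%. The 250 bases upstream hold 11 CpG, against a median of 8 over all genes. The same window holds 39 at the main Nfia start, 38 at Nfix and 32 and 17 at the outer and inner Nfic starts. Of 9740 genes with a high-CpG promoter at the 5'-most start, 79.8% were marked and 1967 were not. The 5'-most start of Nfib itself, 82705750, belongs to a single transcript and has a low ratio, 0.236, a class in which 16.6% of genes were marked. Repeated words made up 0.412% of the sequence around the main start. The neighbours differed: Zdhhc21, 92988 bp away, had a TSS domain of 1260 bp, and Mpdz, 847358 bp away on the other side, had none.

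Across the family, 32 replicated peaks lay in the 4 genes or the 1000 bp before them. Of these, 9 lay at a start of the member itself, 6 at the start of another gene only and 17 at no start. Both replicate lists held 28 of the 32, against 92.7% of all replicated peaks. Of the 4 others, 3 were weak intronic Nfia peaks missing from replicate 2 and 1 was a 187 bp peak at the Lyl1 start missing from replicate 1.

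Genes tied to NFI proteins were marked in part. The list of 22 was drawn from general knowledge, with earlier results of these data known. In the replicated list 15 had a TSS peak, or 68.2%, beside 50.3% of protein-coding genes, a set without the 2 microRNA genes of the list, with 14 in replicate 1 and 16 in replicate 2. The median domain of the 15 was 3475 bp, against 2258 bp over all marked genes. Single widths ran from 169 bp at Csf3r to 7953 bp at Gata1. The median includes Gata1, Tal1 and Klf1, chosen also as cell type markers, and the microRNA gene Mir21a (7835 bp). No median without them was taken, so the difference in width is not read as a trait of NFI-linked genes. Of 9 genes of blood cells, 8 were marked in the replicated list, beside the 50.3% of protein-coding genes, with 7 in replicate 1 and 8 in replicate 2. The factor Gata1, the master regulator of the red cell lineage, had a wide domain (8229 bp in replicate 1, 5369 bp in replicate 2). So did Tal1 (4689 and 4583 bp) and Klf1 (4222 and 3946 bp). All of these also served above as markers of the cell type. Spi1, a myeloid factor activated by Friend virus insertion in mouse erythroleukaemia, had 5985 and 5813 bp, and Runx1 had 5125 and 3501 bp.

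Other blood genes of the list had narrow, weak or variable TSS peaks. Cebpa, a myeloid factor that competes with NFIA for the miR-223 promoter, had no TSS peak in replicate 1 and a 2679 bp domain in replicate 2, of signal value 4.25 in the replicated list. Csf3r, the granulocyte growth factor receptor, had a single narrow peak (231 bp in replicate 1, 170 bp in replicate 2). Mir223, the gene of miR-223, had none in any list. The annotated start of a microRNA gene is that of its hairpin, so its promoter may lie elsewhere. Gata2, a progenitor factor, differed between the replicates, with 6236 bp in replicate 1 and 2296 bp in replicate 2.

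Of 10 partners and targets from glia, brain and muscle, 4 were marked in the replicated list, as in replicate 1, and 5 in replicate 2. The share, 40.0%, is near the 50.3% of all protein-coding genes. The 4 were Ezh2 (4522 and 4279 bp in replicates 1 and 2), which encodes a histone methyltransferase, Hes1 (4594 and 2426 bp), a repressor downstream of Notch, Zcchc24 (2191 and 2130 bp) and Mef2c (799 and 577 bp). Sox9 and Sox2, Apcdd1, Mmd2, Fabp7 and Gfap, genes of neural stem cells and astrocytes, had no replicated TSS peak. The other 3 genes, Ski, Mir21a and Bbx, were all marked, with replicated domains of 3248, 7835 and 3475 bp. The annotated start of Mir21a is also that of a hairpin, so its domain may not lie at its promoter.

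**Figure D5:**
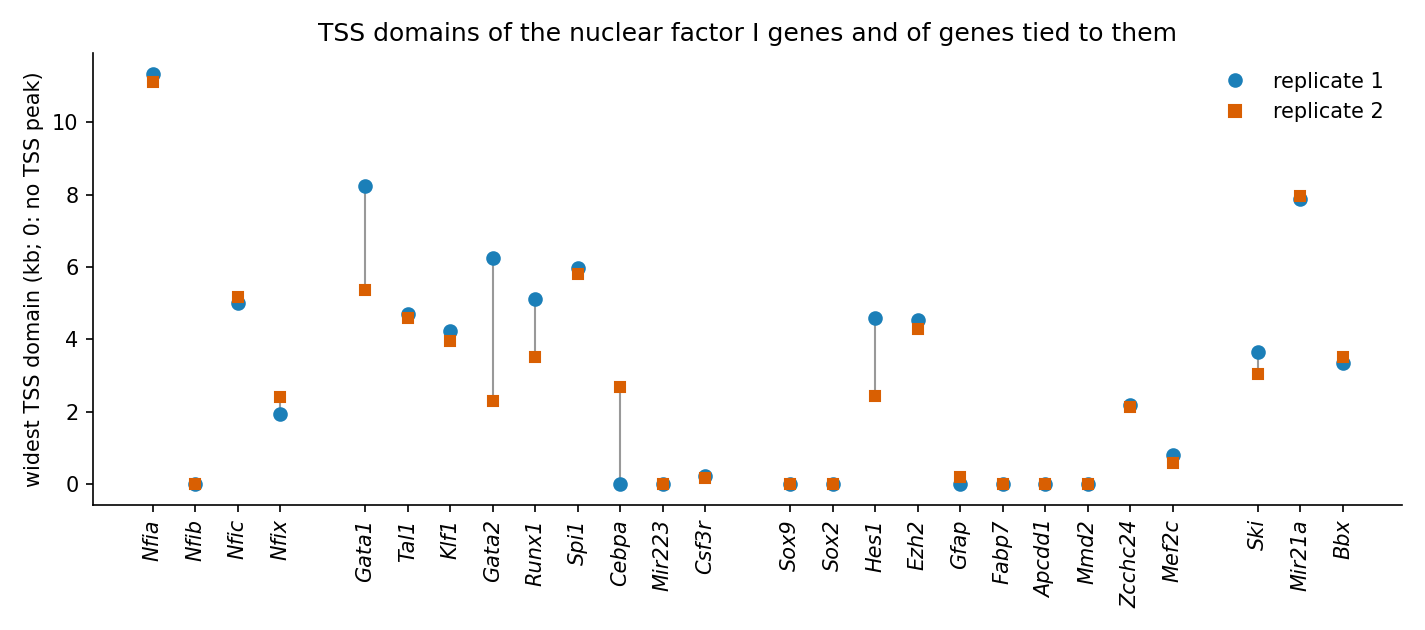
Width of the widest TSS domain (y axis, kb, 0 where no peak lay at a start) of the NFI genes and of 22 genes tied to them, in replicate 1 (circles) and replicate 2 (squares), grouped from left to right as NFI genes, blood, glia with brain and muscle, and others. Nfia, whose width chose the family, is the highest point in both replicates. Gata2, Cebpa and Gata1 show the longest lines between replicates.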

How the data were processed

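H3K4me3 peaks of 2 replicate ChIP-seq libraries from MEL cells were analysed as deposited. Per the notes the authors deposited, the lists were made from the alignments of each replicate with a control, from both sets of alignments pooled, and, for replicated peaks, from the other 3 lists. The sources used here name no aligner, no caller and no rule for replicated peaks. Each deposited peak has a signal value, a score by the authors, and a −log10 p-value and q-value. An mm9 list was not used here.

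Starts came from GENCODE M21 on GRCm38, with 93459 distinct protein-coding starts, and sequence from the GRCm38.p6 RefSeq assembly. Peaks were assigned to starts within 1000 bp, joined where no more than 1000 bp apart and matched between lists at an overlap of 1 bp. The merging was checked on simulated loci. Named genes were the members, their neighbours, the 5 closest in domain width over the replicates, a list of NFI-linked genes and cell type markers. A gene first placed on that list was left out of it, counts included, and is not reported here, nor are some promoter sequences. The members and lists were chosen with earlier results of these data known. Other settings tried were windows of 500 and 2500 bp around starts, the 5'-most start, starts of protein-coding transcripts, −log10 q of at least 5, other lists, gaps of 0, 500 and 2000 bp and an overlap of 50%. Python 3.11.15, numpy 2.4.6, numba 0.67.0, pysam 0.24.0, samtools 1.23.1 and matplotlib 3.10.9 were used.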

Additional observations from a re-analysis of the deposited data

How the results depend on the processing

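Nfia, Nfic and Nfix were the marked members under every alternative run except the 5'-most start alone, which left Nfia and Nfix, or 2 of 4, with the Nfic domain at 0 bp. Nfib stayed unmarked in each. With no gap bridged the widest runs were 4587 bp at Nfia, 1614 bp at Nfic and 836 bp at Nfix. Nfix was also 836 bp with gaps of up to 500 bp, since its starts lie in a gap of 733 bp. Gaps of up to 2000 bp joined both Nfic regions into 8558 bp. A window of 2500 bp gave Nfix the 5191 bp domain that holds the Lyl1 start, and peaks with −log10 q of at least 5 gave Nfia 10848 bp. Leaving out either replicate in turn gave 11122 to 11346 bp at Nfia, 4993 to 5164 bp at Nfic and 1949 to 2402 bp at Nfix. Peaks in the gene then numbered 16 to 29 at Nfia, 0 to 2 at Nfib and 6 to 10 at Nfic, with the higher counts of Nfia and Nfic without replicate 2 and that of Nfib without replicate 1. Replicated peaks with −log10 q of at least 5 numbered 11 at Nfia, against 16 of any q. At Nfix they numbered 9 against 10, and at Nfic 6 against 6. Of 69 values under alternatives, 55 stayed within the replicate spread or within 1.5 times the count, and 14 moved. The 55 include the Nfib widths, which were 0 bp throughout, and the fall from 3 to 2 marked members. The replicate spread was itself taken from the widths without each replicate. No paired analysis was possible because there is 1 group and no test. The depth of the libraries is unknown, and Nfib peaks too weak for these lists would not be seen.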

Other observations

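Nfib lies in a long stretch of chromosome 4 with few peaks. In the replicated list no peak was listed between 79971445 and 82848715, a stretch of 2.88 Mb around its main start that ranks 53rd of 37358 such stretches, with a median of 6.05 kb. In replicate 1 the stretch reached 6.79 Mb, rank 4 of 51760. It held the starts of 5 protein-coding genes, Ptprd, Tyrp1, Lurap1l, Mpdz and Nfib, and none of them had a TSS peak in any list. Within the same bounds replicate 2 listed 6 peaks, with signal values of 2.93 to 8.21, and the replicated list 3. In replicate 2 the weak peaks inside Nfib cut the stretch around the main start to 56650 bp. This stretch was singled out after its values were seen.

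RefSeq gives Nfia a further start at 97581943, 190791 bp from the nearest GENCODE start. The nearest peak to it lay 5068 bp away in the replicated list, 5168 bp in replicate 1 and 5086 bp in replicate 2.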
